A study of Homo sapiens with 30 samples.

Results

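Processed pseudogenes are copies of spliced mRNAs that were written back into the genome by reverse transcription. Of the 16009 start regions in the deposited table, 474 belong to a gene that GENCODE release 44 types as processed_pseudogene, and these 474 are described here. A group of 129 carries the symbol of a cytosolic ribosomal protein gene (RPL or RPS with a gene number, then P and a number), and the other 345 do not. Of these 345, 239 have another name, among them 6 copies of RPSA, and 106 have none. By sequence, 52 of the 106 unnamed copies resemble a ribosomal protein mRNA most closely, so the class of 129 is defined by name and not by every ribosomal protein copy. The members lie on 24 chromosomes.

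The libraries come from MEL624, a human melanoma cell line, profiled by m6Am-Exo-Seq. In this assay mRNA is treated with an exonuclease that leaves capped 5′ ends, and an anti-m6A antibody then precipitates methylated fragments. The 4 groups of 3 libraries used here were the immunoprecipitations (IPs) of PCIF1 KO cells, the inputs of PCIF1 KO cells, the IPs of control cells and the inputs of control cells. Control cells were wild type with a random sgRNA. All IPs used the same mouse monoclonal antibody. The 3 samples per genotype are called biological replicates in the labels, and the sources used here do not say how many KO clones they came from, so KO and clone cannot be told apart.

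PCIF1 methylates adenosine at the first transcribed position, next to the cap, when that base already carries its ribose methyl group, and the product is m6Am. Anti-m6A antibodies bind both m6Am at the cap and m6A inside the transcript. Genes for ribosomal proteins, which build the ribosome, are transcribed at high levels and have left many retrocopies in mammalian genomes. Their mRNAs typically begin with a C and a run of pyrimidines, the 5′ terminal oligopyrimidine (TOP) motif. A retrocopy keeps no promoter of its parent, so its annotated start is often only where the copied sequence begins.

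The first 60 bases of 6 members are shown because they display this: each opens at or close to the start codon of the parent mRNA and not at a cap site. They are read 5′ to 3′ from hg38, on the strand of the pseudogene, and capitals mark bases that differ from the canonical transcript of the parent or are not aligned to it. RPS2P5 (chr12:118246084-118246143, plus strand), RPL23AP42 (chr3:161429538-161429597, minus strand) and EEF1A1P5 (chr9:133019486-133019545, plus strand) were members with more IP signal in KO cells. RPL32P29 (chr14:49577735-49577794, minus strand) shows a diverged copy, with 10 mismatches and 2 unaligned bases. RPL13AP20 (chr12:12875499-12875558, plus strand) was lower in the KO inputs, and EIF4A1P4 (chr12:53153272-53153331, plus strand) changed in the opposite direction to most members.
RPS2P5: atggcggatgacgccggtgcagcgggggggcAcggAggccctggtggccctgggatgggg
RPL23AP42: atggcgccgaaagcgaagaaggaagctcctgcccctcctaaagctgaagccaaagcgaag
EEF1A1P5: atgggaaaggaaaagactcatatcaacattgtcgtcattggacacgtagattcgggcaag
RPL32P29: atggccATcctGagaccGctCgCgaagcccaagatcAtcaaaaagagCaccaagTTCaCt
RPL13AP20: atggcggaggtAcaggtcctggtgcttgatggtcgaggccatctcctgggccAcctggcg
EIF4A1P4: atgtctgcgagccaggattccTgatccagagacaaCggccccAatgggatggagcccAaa

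The same held for most of the class. Of the 474 annotated starts, 338 (71.3%) read ATG, which was 82.2% of the ribosomal protein copies and 67.2% of the others. By blastn, 464 members matched a canonical protein-coding transcript, and 322 of these began exactly at the base where the parent's coding sequence begins, while 43 began upstream of it and 99 downstream. The first base was A in 79.5% of members, against 46.1% of canonical protein-coding transcripts in the table. A TOP start, here a C followed by at least 4 pyrimidines, was found in 4 members (0.844%), against 5.65% of those protein-coding transcripts. The A of most members is therefore the A of a copied ATG, and the annotation gives no measured cap site for them.

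Sequence sharing limits what the reads can assign. The median identity to the best matching transcript was 95.7%, with 96.5% for ribosomal protein copies and 95.3% for the others. Within the first 200 bases, the longest run identical to the parent had a median of 64.5 bases, and 306 members had a run of at least 50 bases. Reads from such runs fit the parent mRNA as well. How the authors' counting treated reads with several matches is not given in the sources used here, and neither are the width of the start window and the strand setting. Every value below is therefore uncertain as to which copy made the RNA. A further 33 members start inside an exon and 137 inside an intron of another gene on the same strand, 127 lie opposite another gene, and 177 lie outside other genes.

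The reads behind members were few. Reads could be recovered from the deposited values, and a member had a median of 64 reads summed over all 12 libraries (79 for ribosomal protein copies, 58 for the others), against 606 for all rows and 949 for protein-coding genes. Of the 474, 312 had under 100 reads in all and 22 had a group of libraries with no read. The libraries held 1753164 to 2177874 reads in the KO IPs, 2836120 to 3544669 in the KO inputs, 4035815 to 4625190 in the control IPs and 3232562 to 4094070 in the control inputs. PCIF1 itself had 70.4 to 78.0 CPM (counts scaled to the size of the library) in the KO inputs and 49.4 to 57.8 CPM in the control inputs. Its start fragments may lie outside the edited part, so this does not check the knockout. Of 7 melanocyte markers only MITF was in the table, at 9.17 to 10.7 CPM in KO inputs and 8.25 to 14.0 CPM in control inputs, and none of the keratinocyte, fibroblast, leukocyte and endothelial markers was.

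Ribosomal protein copies took up 0.265%, 0.246% and 0.226% of the reads in the KO IPs, 0.256%, 0.257% and 0.231% in the KO inputs, 0.0956%, 0.0875% and 0.0987% in the control IPs and 0.248%, 0.255% and 0.276% in the control inputs. The control IPs lay below all other libraries, and the KO IPs overlapped both sets of inputs. The mean share was 2.62 times higher in KO IPs than in control IPs, and 0.956 times in KO inputs relative to control inputs. RPS2P5 alone carried more than the rest of the class together. Without it the shares averaged 0.0973%, 0.0695%, 0.0408% and 0.0789% in KO IPs, KO inputs, control IPs and control inputs, and the ratio between the IPs was 2.38. The KO IPs, at 0.0939% to 0.103%, then lay above all inputs, which were at 0.0634% to 0.0797%, so the overlap with the inputs rested on RPS2P5. With 3 libraries against 3, the exact permutation test cannot go below 0.1, so no test of these shares is given. Shares are relative within a library, and in such bulk libraries fewer cells with an RNA and less RNA per cell cannot be told apart.

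The other 345 members took up 0.229%, 0.229% and 0.239% of the reads in the KO IPs, 0.139%, 0.137% and 0.133% in the KO inputs, 0.130%, 0.128% and 0.137% in the control IPs and 0.146%, 0.146% and 0.152% in the control inputs. Here the KO IPs stood above all other libraries. The mean share was 1.77 times higher in KO IPs than in control IPs, and 1.52 times without the unnamed copy ENSG00000243829. The cytosolic ribosomal protein genes themselves averaged 5.30% in KO IPs and 8.04% in KO inputs, against 2.76% in control IPs and 8.05% in control inputs. Small nucleolar and mitochondrial RNA moved in the same direction between the IPs. Small nucleolar RNA genes averaged 4.71% in KO IPs and 4.32% in KO inputs, against 1.60% in control IPs and 4.55% in control inputs, and mitochondrial genes 1.95%, 0.727%, 0.946% and 1.12% in the same order of groups. Their part in the results on pseudogenes was not tested.

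**Figure D1:**
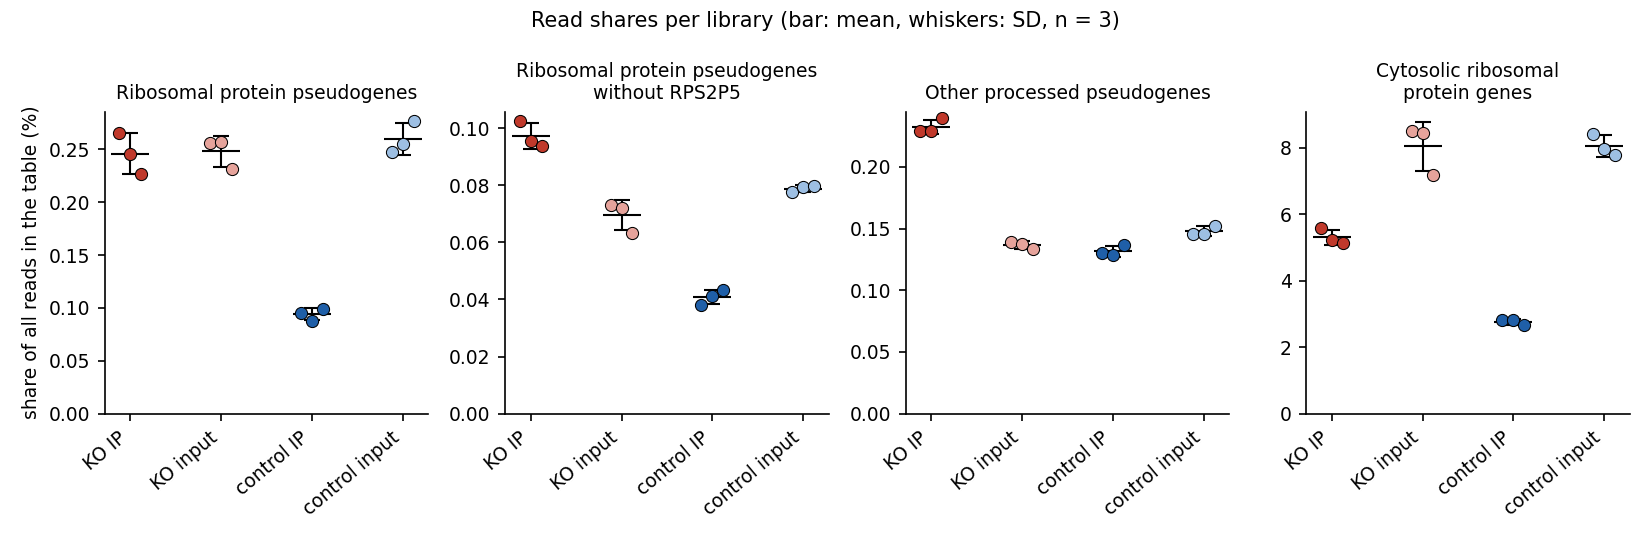
Share of each library's reads (percent, vertical axes) in 4 classes of start regions, one panel per class, with the groups KO IP, KO input, control IP and control input from left to right. Points are libraries, bars the mean and whiskers the SD (n = 3 per group). In both pseudogene classes every KO IP lies above every control IP.

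In KO cells, pseudogene starts were mostly more abundant in the IPs than in the inputs. All log2 differences come from a limma fit over all 16009 rows of the deposited log2 CPM values, and a called row is one whose p, adjusted after Benjamini and Hochberg, is under 0.05. In KO IP minus KO input, 41 ribosomal protein copies rose and 12 fell of 129, with a median log2 difference of 0.65, and 133 of the other 345 rose and 19 fell, with a median of 1.0. Over all rows 28.4% were called higher and 31.0% lower, with a median of -0.07. The share called higher was thus near the background for ribosomal protein copies (31.8%) and above it for the others (38.6%), and few members fell in either class. The 79 cytosolic ribosomal protein genes had a median of -0.57, with 15 higher and 48 lower. With each library centred on those 79 genes in place of its total, the median of all rows moved to 0.24, and the counts were 49 higher and 6 lower for ribosomal protein copies (38.0% and 4.65%) and 151 and 16 for the others (43.8% and 4.64%), against 34.4% and 20.4% of all rows.

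CYCSP6, a copy of the cytochrome c gene at chr2:78412793-78413094, was among the members with the largest rise. It had 34.4, 31.7 and 37.3 CPM in the KO IPs, 4.67, 3.05 and 4.3 CPM in the KO inputs, 9.16, 9.0 and 11.2 CPM in the control IPs, against 3.84, 2.60 and 4.75 CPM in the control inputs. Each IP of a genotype lay above all its inputs. Its log2 difference between IP and input was 3.13 ± 0.26 (SE) in KO cells (limma, adjusted p = 3.9e-09) and 1.43 ± 0.26 in control cells (limma, adjusted p = 0.00011). UQCRFS1P1, a copy of the gene for the iron-sulfur subunit of respiratory complex III, showed the reverse, with 5, 6 and 3 reads in the KO IPs, 57, 68 and 62 in the KO inputs, 7, 11 and 5 in the control IPs and 58, 69 and 60 in the control inputs. No IP reached any input. Its log2 difference was -2.94 ± 0.31 in KO cells and -3.11 ± 0.31 in control cells (limma, adjusted p = 1.1e-07 and 5.1e-08).

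In control cells the medians of both classes lay on either side of 0. In control IP minus control input, 4 ribosomal protein copies rose and 45 fell, with a median log2 difference of -0.86. Of the others 56 rose and 55 fell, with a median of 0.12. Over all rows 27.7% were called higher and 28.2% lower, with a median of -0.01, so that ribosomal protein copies were called lower more often than the background (34.9%) and higher less often (3.10%), while the others were called less often in both directions (16.2% and 15.9%). The 52 unnamed copies that match a ribosomal protein mRNA had a median of -0.95, with 2 higher and 19 lower. Divided by best matching transcript in place of name, 6 of 189 ribosomal protein copies rose and 68 fell (median -0.96), and 54 of the other 285 rose and 32 fell (median 0.37). The ribosomal protein genes had a median of -1.14, with 5 higher and 57 lower of 79. Centring each library on those genes moved the median of all rows to 1.29 and turned the ribosomal protein copies to a median of 0.45, with 33 higher and 11 lower (25.6% and 8.53%), and the others to 168 and 12 (48.7% and 3.48%), where 66.1% of all rows were called higher and 4.28% lower. Relative to the median of all rows, ribosomal protein copies were at -0.85 and the others at 0.13. Centring shifts every row by the same amount, so these relative values cannot change with it.

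The difference of enrichment is the IP minus input difference in KO cells minus the same difference in control cells, and a positive value means a greater share in the IP in KO cells. Here 42 ribosomal protein copies rose and none fell, with a median log2 difference of 1.57, and 118 of 129 were above 0. Of the other 345, 60 rose and 4 fell, with a median of 1.03, and 260 were above 0. All rows of the table reach a log2 CPM of 0 in at least 3 libraries, which is the size of a group. A member with few reads can be in the table through its KO IPs alone, which favours a positive value. The same entry favours a positive value in KO IP minus KO input and in KO IP minus control IP. It also favours a copy lying above its parent in the difference of enrichment. How many members entered in this way was not counted, so the counts of members that rose carry this limit. Over all rows 13.0% were called higher and 15.8% lower, with a median of -0.06. The share called higher was 32.6% for ribosomal protein copies and 17.4% for the others, which is closer to the background. Besides the 0 ribosomal protein copies called lower by limma, 0 were lower at an unadjusted p under 0.05, 0 with limma-voom weights on the recovered reads, and 0 in each fit that left out 1 library.

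The size of this difference depends on the scaling, because most ribosomal protein genes rose as well (median 0.54, 40 higher and 4 lower of 79). Centring on those genes moved the median of all rows to -1.06. The ribosomal protein copies then had a median of 0.57, with 5 higher and 0 lower (3.88% and 0%), and the others a median of 0.03, with 14 higher and 28 lower (4.06% and 8.12%). In that scaling 1.89% of all rows were called higher and 52.2% lower. Such centring shifts every row by the same amount, -1.0 here, so it moves calls and signs but not the order of the rows. Relative to the median of all rows, the values were 1.63 and 1.09 under either scaling. Centring each library on its median left 42 and 0 calls among ribosomal protein copies and 58 and 4 among the others. The count of 4 that fell was 9, 8 and 7 without KO IP 1, 2 and 3.

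**Figure D2:**
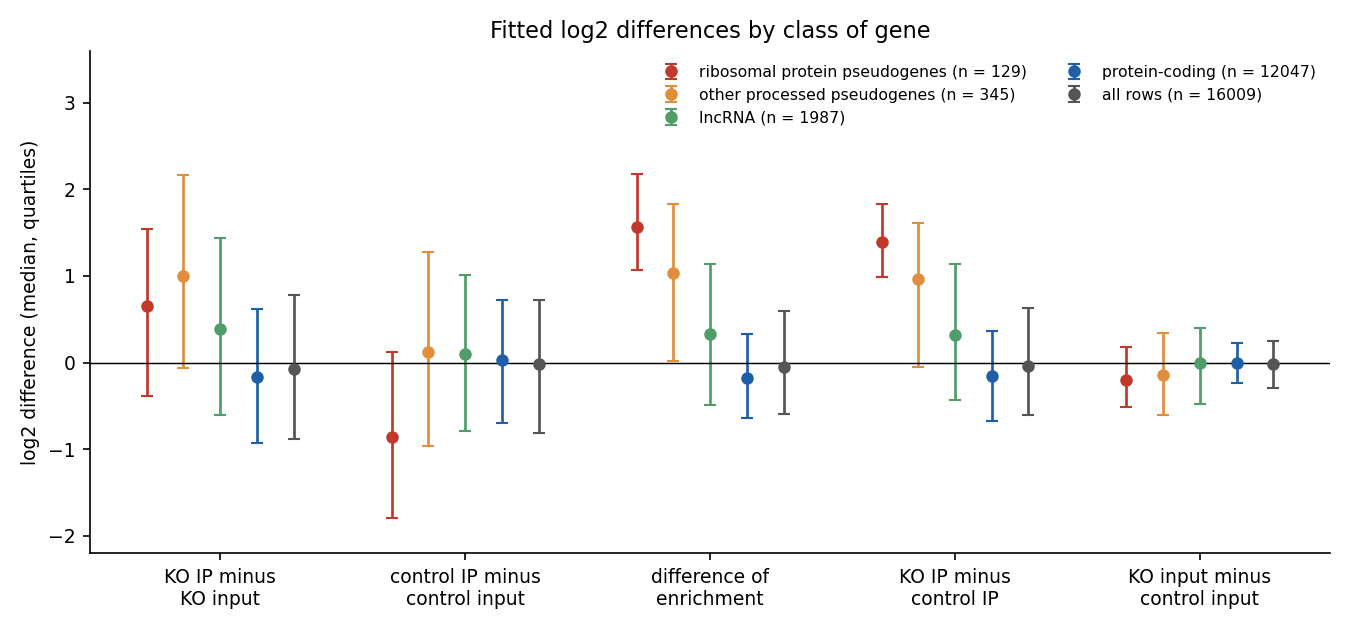
Median (points) and quartiles (bars) of the fitted log2 differences in 5 comparisons for 129 ribosomal protein pseudogenes, 345 other processed pseudogenes, 1987 lncRNA genes, 12047 protein-coding genes and all 16009 rows. In the difference of enrichment the medians are 1.57, 1.03, 0.33, -0.18 and -0.06 in that order.

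RPS2P5 (chr12:118246084-118246962, plus strand, opposite the kinase gene TAOK3) copies RPS2, a protein of the small ribosomal subunit, and held 53019 of the members' reads. It had 1728, 1595 and 1329 CPM in the KO IPs, 1761, 1777 and 1548 CPM in the KO inputs, 618, 492 and 590.3 CPM in the control IPs, against 1614, 1652 and 1856 CPM in the control inputs. The control IPs were apart from the other 9 libraries, which overlapped. Its enrichment differed between the genotypes by 1.46 ± 0.16 (SE; limma, adjusted p = 1.5e-06), against 1.12 ± 0.11 for RPS2 itself (limma, adjusted p = 8.1e-07). With libraries centred on the ribosomal protein genes it was 0.46 and not called (adjusted p = 0.13). The first 60 bases shown above differ from RPS2 at 2 positions, and the longest shared run is 164 bases.

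RPL23AP42 (chr3:161429127-161429597, minus strand, opposite LINC02067) copies RPL23A, of the large ribosomal subunit, at 99.6% identity. It had 129, 87.7 and 82.5 CPM in the KO IPs, 34.5, 29.8 and 25.7 CPM in the KO inputs, 63.9, 59.1 and 59.5 CPM in the control IPs, against 39, 35.8 and 36.6 CPM in the control inputs. It was one of the few ribosomal protein copies that were higher in the IP than in the input in both genotypes, and the KO IPs were highest. The difference of enrichment was 1.0 ± 0.21 (limma, adjusted p = 0.0013) and was -0.0012 when libraries were centred on the ribosomal protein genes. RPL23A had 0.41 ± 0.28 (limma, adjusted p = 0.29).

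RPL36AP37 (chr11:16974693-16975013, minus strand, in an intron of PLEKHA7) is identical to its aligned part of RPL36A. It had 80.5, 64.8 and 69.9 CPM in the KO IPs, 28.8, 30.1 and 32.9 CPM in the KO inputs, 21.0, 29.5 and 31.3 CPM in the control IPs, against 28.3, 32.6 and 37.1 CPM in the control inputs. Only the KO IPs stood apart. Between genotypes its enrichment differed by 1.5 ± 0.22 (limma, adjusted p = 3.9e-05), against 0.34 ± 0.19 for RPL36A (limma, adjusted p = 0.2). Centred on the ribosomal protein genes it was 0.50 and not called (adjusted p = 0.14).

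RPL32P29 (chr14:49577392-49577794, minus strand) lies within an exon of RPS29, another ribosomal protein gene, and matches RPL32 at 86.5%, with no shared run above 20 bases in its first 200. It had 52.1, 70.2 and 64.8 CPM in the KO IPs, 11.0, 11.2 and 5.60 CPM in the KO inputs, 13.1, 15.8 and 18.4 CPM in the control IPs, against 10.0, 13.4 and 14.7 CPM in the control inputs. The KO IPs were above all other libraries, and the inputs of both genotypes overlapped. Its difference of enrichment was 2.49 ± 0.34 (limma, adjusted p = 1.8e-05). RPS29, whose exon it shares, had 0.79 ± 0.14 (limma, adjusted p = 0.00028) and RPL32 had 0.07 ± 0.22 (limma, adjusted p = 0.84). The difference between the copy and either gene was not tested.

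RPL13P12 (chr17:17383377-17384012, minus strand, outside other genes) copies RPL13 of the large subunit. It had 91.3, 91.6 and 72.8 CPM in the KO IPs, 117, 147 and 109.5 CPM in the KO inputs, 41.3, 35.2 and 36.1 CPM in the control IPs, against 107, 104 and 105 CPM in the control inputs. In both genotypes the IPs were below the inputs, by a smaller margin in KO cells. The difference of enrichment was 0.95 ± 0.17 (limma, adjusted p = 0.00037), beside 0.74 ± 0.13 for RPL13 (limma, adjusted p = 0.00018), and -0.055 with libraries centred on the ribosomal protein genes.

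Among the other members, EEF1A1P5 (chr9:133019486-133020874, plus strand, outside other genes) copies the translation elongation factor EEF1A1 at 99.7% identity. It had 28.0, 37.1 and 16.1 CPM in the KO IPs, 13.6, 10.9 and 10.5 CPM in the KO inputs, 9.16, 4.80 and 6.42 CPM in the control IPs, against 14.0, 13.8 and 15.3 CPM in the control inputs. In KO cells every IP exceeded every input, and in control cells every IP was below every input. The IP minus input difference was 1.15 ± 0.27 in KO cells (limma, adjusted p = 0.0012) and -1.13 ± 0.27 in control cells (limma, adjusted p = 0.0014). The difference of enrichment was 2.28 ± 0.38 (limma, adjusted p = 0.00017), against 1.67 ± 0.19 for EEF1A1 (limma, adjusted p = 2.4e-06). EEF1A1 itself is a TOP mRNA.

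HDGFP1 (chrX:131646639-131646890, plus strand, outside other genes) is a copy of the growth factor gene HDGF. It had 46.2, 39.5 and 31.0 CPM in the KO IPs, 6.39, 9.28 and 7.22 CPM in the KO inputs, 16.4, 12.9 and 11.8 CPM in the control IPs, against 9.21, 8.55 and 11.2 CPM in the control inputs. The KO IPs exceeded all other libraries. Its difference of enrichment was 1.85 ± 0.30 (limma, adjusted p = 0.00012), while HDGF had -0.18 ± 0.13 (limma, adjusted p = 0.31). CYCSP6, described above, had 1.69 ± 0.37 (limma, adjusted p = 0.0019), which was 0.69 and not called (adjusted p = 0.16) with libraries centred on the ribosomal protein genes, and its parent CYCS 0.24 ± 0.20 (limma, adjusted p = 0.4).

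The unnamed copy ENSG00000243829 (chr19:49719498-49720081, minus strand, outside other genes) matches RPS9 of the small ribosomal subunit at 95.9%. It was singled out after its values were seen, because it held the most reads among the members outside the class of 129. It had 627, 577 and 536 CPM in the KO IPs, 424, 388 and 343 CPM in the KO inputs, 170.1, 159 and 161 CPM in the control IPs, against 397, 344 and 341 CPM in the control inputs. The KO IPs were highest and the control IPs lowest, with both sets of inputs between them. It had a difference of enrichment of 1.73 ± 0.14 (limma, adjusted p = 5.3e-08).

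**Figure D3:**
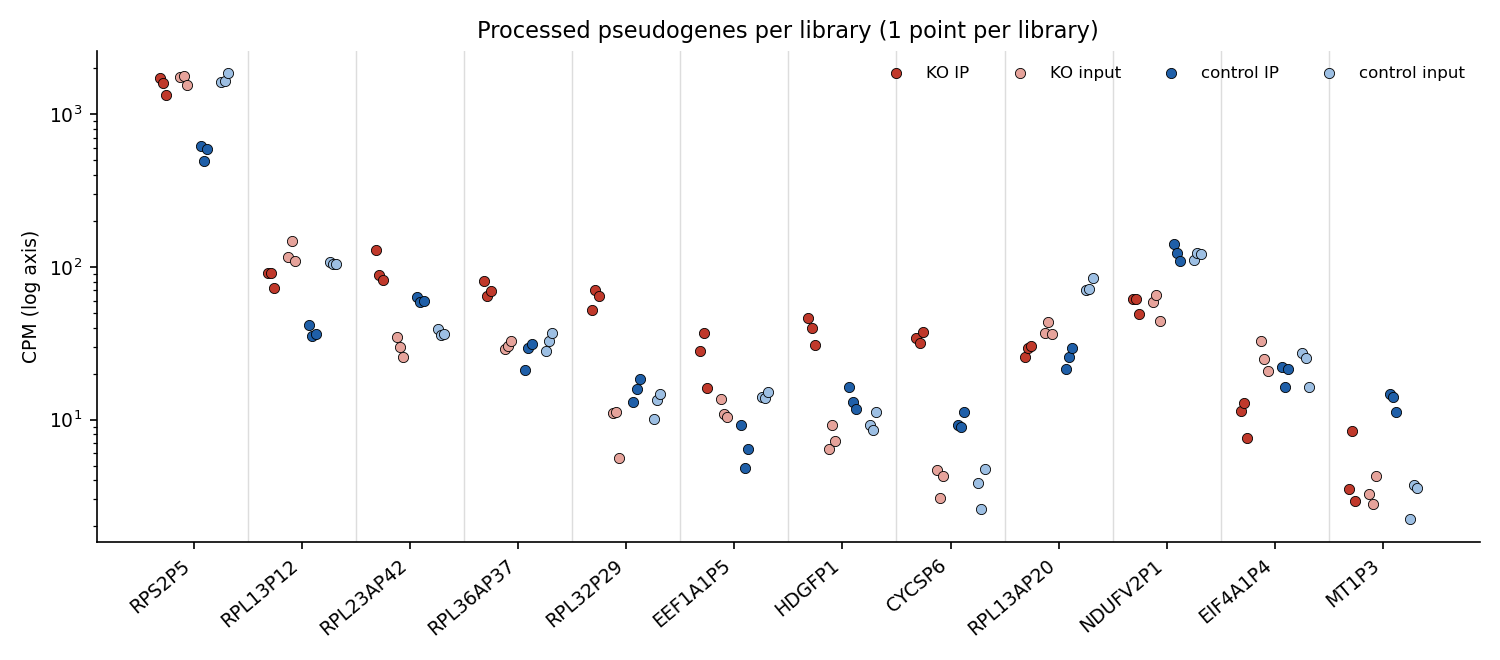
Abundance (CPM, log axis) of 12 members in each library, with the groups KO IP, KO input, control IP and control input from left to right in every panel. Points are libraries. In RPL36AP37, RPL32P29 and HDGFP1 the 3 KO IPs lie above the other 9 libraries, and in NDUFV2P1 both KO groups lie below both control groups.

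The 4 members that fell were all outside the ribosomal protein class. EIF4A1P4 (chr12:53153272-53154484, plus strand), a copy of the translation initiation helicase EIF4A1, had 11.4, 12.7 and 7.52 CPM in the KO IPs, 32.8, 25 and 20.9 CPM in the KO inputs, 22.2, 16.3 and 21.4 CPM in the control IPs, against 27.2, 25.3 and 16.4 CPM in the control inputs. Only the KO IPs were low. Its difference of enrichment was -1.14 ± 0.33 (limma, adjusted p = 0.013), and the call was lost without the variance trend (adjusted p = 0.054). EIF4A1 had -0.16 ± 0.16 (limma, adjusted p = 0.47).

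MT1P3, a copy from the metallothionein family of metal-binding proteins, had 3.51, 8.35 and 2.94 CPM in the KO IPs, 3.23, 2.78 and 4.3 CPM in the KO inputs, 14.7, 14.0 and 11.2 CPM in the control IPs, against 2.23, 3.74 and 3.58 CPM in the control inputs. The control IPs stood above all others, and the KO IPs overlapped the inputs. Its difference of enrichment was -1.71 ± 0.53 (limma, adjusted p = 0.021), and it was between -1.47 and -1.67, with adjusted p from 0.05 to 0.058, without control input 1, KO input 3, control IP 1 or control IP 2. The remaining pair, TMEM14DP and FKBP1AP1, have 43 and 71 reads in all and are named because the count is small. TMEM14DP had no read in the KO IPs, 6, 6 and 5 in the KO inputs, 5, 2 and 4 in the control IPs and 3, 7 and 5 in the control inputs. FKBP1AP1 had 2, 0 and 0 reads in the KO IPs, 4, 8 and 3 in the KO inputs, 13, 12 and 14 in the control IPs and 3, 7 and 5 in the control inputs.

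In the direct comparison of KO IP with control IP, 73 ribosomal protein copies rose and 0 fell, with a median log2 difference of 1.39, and 104 of the others rose and 20 fell, with a median of 0.97. Over all rows 23.0% were called higher and 26.0% lower, with a median of -0.04. Of the ribosomal protein copies 1 was lower at an unadjusted p under 0.05, and 1 was called lower with limma-voom weights, in both cases RPL38P4, described further on. The share called higher was 56.6% of ribosomal protein copies and 30.1% of the others. With libraries centred on ribosomal protein genes the median of all rows was -1.12, and the counts were 11 higher and 3 lower for ribosomal protein copies (8.53% and 2.33%) and 22 and 66 for the others (6.38% and 19.1%), against 3.32% and 65.9% of all rows. Among those that fell, MT1XP1, also from the metallothionein family, had 12, 12 and 6 reads in the KO IPs and 74, 50 and 54 in the deeper control IPs, and a log2 difference of -1.56 ± 0.34 (limma, adjusted p = 0.00091).

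In the inputs few members were called between genotypes. In KO input minus control input 0 ribosomal protein copies rose by limma (0 at an unadjusted p under 0.05 and 0 with limma-voom weights) and 3 fell (median log2 difference -0.20), and 5 of the others rose and 13 fell (median -0.14). Over all rows 5.56% were called higher and 5.67% lower, against 1.05% and 3.38% of members, whose few reads limit calls. Above 0 were 40.1% of members and 31.8% of ribosomal protein copies, against 48.5% of all rows. The 5 that rose were 3 without control input 1. The 16 that fell in both classes together were 9, 10 and 9 without control input 1, 2 and 3, and 10 without KO input 3. At an adjusted p under 0.05, none of RPS2P5, RPL13P12, RPL23AP42, RPL36AP37, RPL32P29, EEF1A1P5, HDGFP1 and CYCSP6 was called in the inputs by limma or with limma-voom weights, and 2 of the 8 were at an unadjusted p under 0.05.

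RPL13AP20 (chr12:12875499-12876107, plus strand, outside other genes) copies RPL13A of the large subunit and was lower in the KO inputs. It had 25.6, 29.3 and 30.4 CPM in the KO IPs, 37.1, 43.4 and 36.1 CPM in the KO inputs, 21.5, 25.5 and 29.5 CPM in the control IPs, against 71.0, 71.8 and 85.0 CPM in the control inputs. The inputs of both genotypes did not overlap, while the IPs did. The input change was -0.97 ± 0.14 (limma, adjusted p = 0.0001) and the IP change 0.16 ± 0.14 (limma, adjusted p = 0.35). Its difference of enrichment of 1.13 ± 0.20 (limma, adjusted p = 0.00024) went with a lower input in KO cells, unlike that of RPS2P5. With libraries centred on the ribosomal protein genes the IP change was -0.92 (adjusted p = 6.6e-05), a called fall, and the difference of enrichment was 0.13 and not called (adjusted p = 0.69).

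RPL38P4, a copy of RPL38 in an intron of an unnamed gene on the same strand, had 13, 13 and 7 reads in the KO IPs, 3, 1 and 0 in the KO inputs, 50, 66 and 55 in the control IPs and 23, 32 and 22 in the control inputs. In CPM each KO group was below the control group of its kind without overlap. The input change was -4.53 ± 0.59 (limma, adjusted p = 3.3e-05), and the difference of enrichment, 3.17 ± 0.84 (limma, adjusted p = 0.0078), rests on these 4 KO input reads. Its IP change of -1.36 ± 0.59 did not pass the test (limma, adjusted p = 0.065), but did without KO input 1 (adjusted p = 0.02) or KO input 3 (adjusted p = 0.0049), with a block for the column number (adjusted p = 0.041) and with limma-voom weights, where it was -1.29 (adjusted p = 0.00063). NDUFV2P1 (chr19:53223973-53224879, minus strand), a copy of a complex I subunit gene, had 61.4, 61.9 and 48.7 CPM in the KO IPs, 59.2, 65.0 and 43.9 CPM in the KO inputs, 141, 123 and 109 CPM in the control IPs, against 112, 123 and 121 CPM in the control inputs. IP and input moved together, with an input change of -1.10 ± 0.14 and an IP change of -1.12 ± 0.14 (limma, adjusted p = 2.3e-05 and 2e-06), and the difference of enrichment was -0.02 ± 0.20. NDUFV2, its parent, had an input change of -0.84 ± 0.09 (limma, adjusted p = 3.9e-06).

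FAM3C2P (chrX:23075758-23076767, plus strand) is an example of a member enriched in both genotypes. It was also called lower in KO cells, with a log2 input change of -1.12 and an IP change of -0.76. It had 72.2, 92.6 and 85.9 CPM in the KO IPs, 8.97, 11.4 and 20.2 CPM in the KO inputs, 132, 149.9 and 140.5 CPM in the control IPs, against 23.7, 32.4 and 27.5 CPM in the control inputs. The enrichment was 2.70 ± 0.21 in KO cells and 2.35 ± 0.21 in control cells (limma, adjusted p = 8.7e-10 and 7.1e-09), and the difference of 0.36 ± 0.29 did not pass the test (limma, adjusted p = 0.39). PIN4P1, a copy of a prolyl isomerase gene, had 3.38 ± 0.41 in KO cells and 3.07 ± 0.41 in control cells (limma, adjusted p = 7e-07 and 2.7e-06).

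Parents by name were in the table for 349 members, the 129 ribosomal protein copies with 53 parents and 220 others with 145 parents. In the difference of enrichment the copy was above its parent in 100 of 129 ribosomal protein pairs (77.5%) and in 169 of 220 other pairs (76.8%), with parent medians over pairs of 0.46 and -0.16. Across pairs, Pearson's r was -0.03 and Spearman's rho -0.01 for ribosomal protein copies, and 0.24 and 0.20 for the others. In control enrichment the same correlations were 0.36 and 0.40, and 0.49 and 0.50. The pairs share libraries, sequence and often a parent, so these are descriptions only. For the other copies the median was 0.67 where the parent was called lower (59 copies), 1.03 where it was not called (118) and 1.54 where it was called higher (43). For ribosomal protein copies it was 1.99 (4 copies), 1.65 (73) and 1.44 (52) in the same order.

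**Figure D4:**
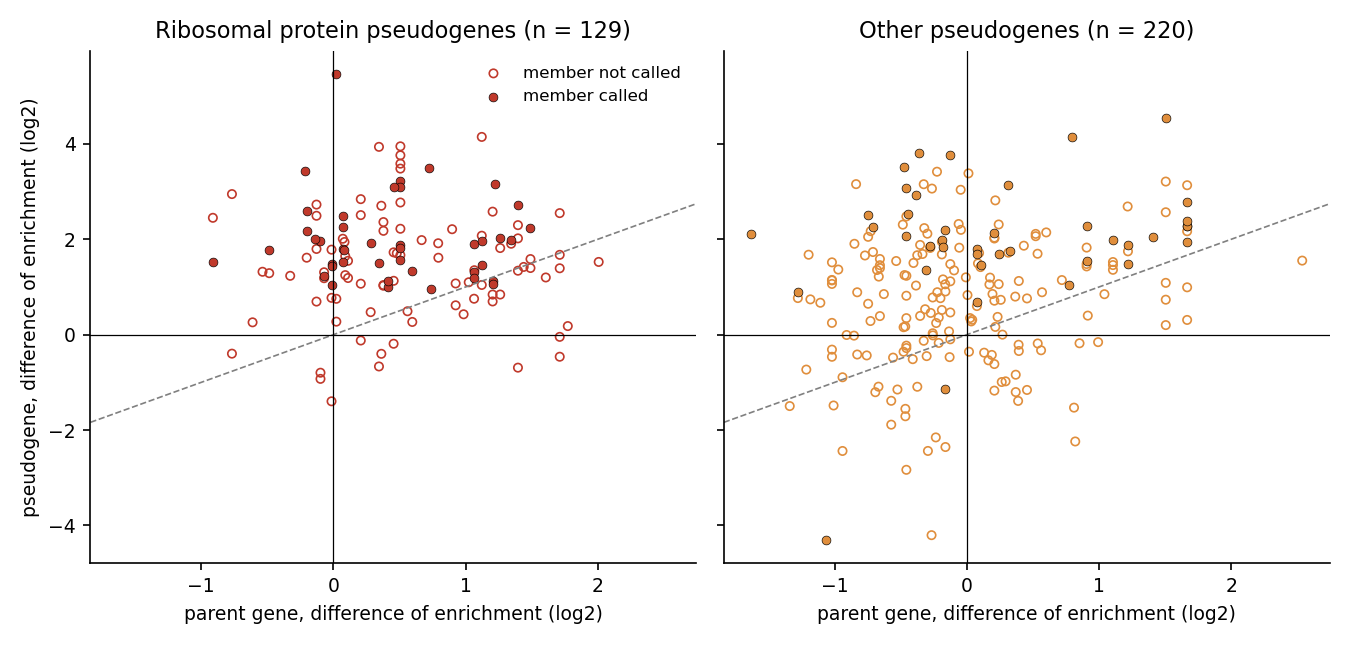
Difference of enrichment (log2) of each copy on the vertical axis against that of its parent gene on the horizontal axis, for 129 ribosomal protein pairs and 220 other pairs, with filled points for called copies and a dashed line of equal values. Most points lie above the line, 100 of 129 and 169 of 220.

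Families with several copies varied among themselves. All 12 copies of RPL7A were above 0 in the difference of enrichment, from 1.57 to 3.95 with a median of 2.94, and 5 rose, while RPL7A had 0.51 ± 0.25 (limma, adjusted p = 0.15). Of 5 copies of RPL32, 4 rose (median 2.01), with RPL32 at 0.07. By limma 0 copies were called of RPL5 (5 copies, median 1.39), RPL10 (4, 1.61), RPL17 (4, 1.79) and RPL21 (4, 2.15). Of 5 copies of RPL12, 1 rose (median 2.02). Over all rows 13.0% were called higher. Of 9 copies of EEF1A1, 5 rose (median 2.28). Of 6 copies of RPL15, 3 rose (median 1.23), with RPL15 at -0.01, and of 4 copies of HMGA1, which encodes an architectural chromatin protein, 3 rose (median 1.19), with HMGA1 at 0.08. By limma 0 of 7 copies of FTH1, the ferritin heavy chain, were called (1 at an unadjusted p under 0.05, 0 with limma-voom weights), and their median was 1.06, while FTH1 fell by 1.02. Without KO IP 2, FTH1P2 was called at 1.78 (limma, adjusted p = 0.044). By limma 0 of 6 copies of the keratin gene KRT8 were called (0 at an unadjusted p under 0.05, 0 with limma-voom weights), with a median of 0.06, and without KO IP 3 KRT8P9 was called at -4.59 (limma, adjusted p = 0.003). In control enrichment all 5 copies of PPIA (cyclophilin A) and all 5 of RPL13A fell, where 28.2% of all rows were called lower. Their parents fell too, PPIA by 2.38 and RPL13A by 2.07. Copies of 1 family share sequence, so they are not separate observations.

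The median differed little between ranges of read level. In the difference of enrichment the members' medians were 1.20, 1.24, 1.34, 1.49 and 1.13 for mean log2 CPM under 1, from 1 to 2, 2 to 3, 3 to 4, and 4 or more (295, 84, 48, 28 and 19 members). Protein-coding genes in the same ranges had -0.25, 0.01, -0.09, -0.19 and -0.20, and lncRNA genes 0.39, 0.38, 0.25, 0.24 and 0.35. The share called higher grew with level, from 8.47% (25 members) in the lowest range to 78.9% (15 of 19) in the highest. It grew in the other classes too, with 1.76% and 13.6% of protein-coding genes and 4.54% and 36.9% of lncRNA genes called higher in these ranges. Of 162 members with at least 100 reads, 75 rose and 2 fell (median 1.3), and of 312 with fewer, 27 rose and 2 fell (median 1.23).

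**Figure D5:**
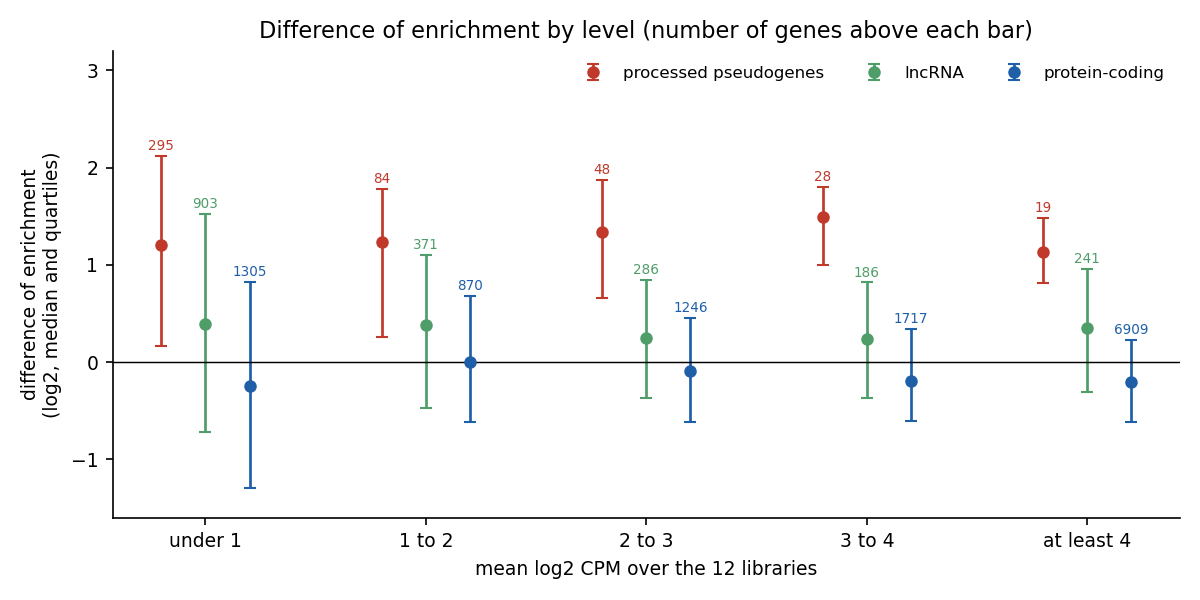
Median (points) and quartiles (bars) of the difference of enrichment (log2) by mean log2 CPM, for processed pseudogenes, lncRNA genes and protein-coding genes. Pseudogene medians lie between 1.13 and 1.49 in all 5 ranges, above the other classes.

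By position, the medians spread more in KO enrichment than in the difference between genotypes. Members inside a same-strand exon had a median KO enrichment of 2.31, those in a same-strand intron 0.93, those opposite another gene 0.89 and those outside other genes 0.55. In the difference of enrichment the same groups had medians of 1.68, 1.23, 1.31 and 1.06. Of the 304 members apart from same-strand genes, 59 rose (19.4%) and 4 fell (1.32%), with a median of 1.19. Of these, 92 were ribosomal protein copies, with 26 higher (28.3%) and 0 lower (median 1.56). The 212 others had 33 higher and 4 lower (median 0.78). The shares over all rows were 13.0% higher and 15.8% lower.

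Members more similar to the parent had lower median enrichment in both genotypes. For identities up to 90%, 90 to 95%, 95 to 98% and 98 to 100% (79, 125, 149 and 111 members), the median KO enrichment was 1.75, 1.0, 0.75 and 0.55, and the median control enrichment 0.37, -0.07, -0.30 and -0.54. The median difference of enrichment was 1.46, 1.31, 1.14 and 1.20. The 118 members whose longest shared run was at most 40 bases had a median difference of 1.53, and 28 of the 118 were higher and 0 lower. The 104 with runs above 100 bases had 1.14, and 22 of the 104 were higher and 1 lower. The shares over all rows were 13.0% higher and 15.8% lower.

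Members with an annotated first base A had a median control enrichment of -0.17 and a median difference of 1.32 (377 members), against 0.32 and -0.37 for protein-coding genes whose canonical transcript begins with A (5549 genes). Other classes of the table had medians in the difference of enrichment of 1.60 (211 small nucleolar RNA genes), 0.88 (67 unprocessed pseudogenes), 0.84 (105 transcribed processed pseudogenes), 0.33 (1987 lncRNA genes), 0.21 (229 transcribed unprocessed pseudogenes) and -0.18 (12047 protein-coding genes). A higher value in KO cells was thus shared with small nucleolar RNA genes and other pseudogene types and is not particular to processed pseudogenes.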

How the data were processed

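The authors deposited log2 CPM values (read counts scaled to library size) at transcription start regions for 12 libraries. The submitters' processing notes list, for hg38 and with no role stated, edgeR 3.12.1 in R 3.3.3, featureCounts, HISAT2 2.0.4 as well as SAMtools 1.7 and deepTools 3.0.2. With an added count of 0.25 scaled to the library, 100% of the deposited values gave whole reads within 0.01. CPM here are the antilog of deposited values, small added count included. The 18 first-stage libraries are not analysed here.

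Column numbers are not tied to the labels' replicate letters, so columns were assigned to groups only. Rows were to reach a log2 CPM of 0 in 3 libraries, which all 16009 did. The fit of 4 group means with a variance trend was made by limma 3.58.1 under R 4.3.3, and p-values were Benjamini-Hochberg adjusted over all rows. They measure only the spread between samples. Gene types came from GENCODE 44 (15903 rows matched), and best transcripts from blastn 2.17.0. On simulated data the fit missed most of the smaller planted changes. Its calls there held more unplanted rows than the threshold allows. A row that is not called may therefore still have changed, and more of the called rows may be false than the threshold allows. The simulation altered only KO IPs, in far fewer rows than were called here, and at a single fixed spread. Its error rates may thus not hold for these data. Without molecular identifiers, reads are not independent molecules.

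Members and lists were chosen with earlier results of these data known. Named members were, per class and comparison, up to 6 each way with the largest differences, called, not overlapping between libraries and averaging 1 or more in log2 CPM, the 5 highest per class, the 6 highest per class outside other genes, and their parents. RPL7A copies, small counts, and the unnamed copy were chosen after values were seen. Alternatives were another pseudocount, filter, centring, variance model, set of groups, class definition, and leaving out each library.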

Additional observations from a re-analysis of the deposited data

Results flagged for a closer look

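The effect of precipitation (IP over input) differed between KO and control cells, by the interaction term of the limma fit, for 102 processed pseudogenes that rose and 4 that fell. Of those that rose, 42 were ribosomal protein copies (32.6% of that class) and 60 others (17.4% of that class). The 4 that fell were others (1.16%). The shares over all rows were 13.0% higher and 15.8% lower, so the others rose at a share closer to the background.

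Among ribosomal protein copies, the difference of enrichment (log2, KO minus control) was 3.17 for RPL38P4, 3.09 for RPL36P13, 2.60 for RPL7P23, 2.49 for RPL32P29, 2.26 for RPL32P18 and 2.24 for RPS27P3. RPL36P13, opposite the transcription factor gene FOXP2, had 14, 27 and 22 reads in the KO IPs, 1, 7 and 7 in the KO inputs, 4, 4 and 7 in the control IPs and 4, 3 and 7 in the control inputs (limma, adjusted p = 0.013). Without control input 2, RPL7P23 had 2.21 (limma, adjusted p = 0.059). RPS27P3 had 1.79 to 2.11, with adjusted p from 0.054 to 0.057, without control input 2, KO input 2, control IP 1 or KO IP 3. With libraries centred on ribosomal protein genes, which lowers every row by the same amount, RPL7P23 had 1.59, RPL32P18 1.25 and RPS27P3 1.24, and none of the 3 was called (limma, adjusted p from 0.069 to 0.14).

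Among the others it was 2.53 for DUSP8P5, 2.51 for ACTBP8, 2.38 for EEF1A1P22, 2.28 for EEF1A1P13, 2.28 for EEF1A1P5, 2.14 for HNRNPA1P16, -1.71 for MT1P3 and -1.14 for EIF4A1P4. HNRNPA1P16, a copy of a splicing regulator gene, had 32, 31 and 28 reads in the KO IPs, 8, 11 and 14 in the KO inputs, 15, 6 and 14 in the control IPs and 10, 10 and 8 in the control inputs (limma, adjusted p = 0.004). Without control IP 1, EEF1A1P22 had 1.91 (limma, adjusted p = 0.052). DUSP8P5 had 1.80 to 2.50, with adjusted p from 0.052 to 0.087, without control input 1 or 2, KO input 1, control IP 2 or KO IP 2, and lost its call without the variance trend (adjusted p = 0.078). Centred on ribosomal protein genes, DUSP8P5 had 1.52, ACTBP8 1.51, EEF1A1P22 1.38, EEF1A1P13 1.28 and HNRNPA1P16 1.13, and none of these 5 was called (limma, adjusted p from 0.074 to 0.12). MT1P3 passed the test by little, with adjusted p from 0.05 to 0.058 without control input 1, KO input 3, control IP 1 or control IP 2. In these 14 members the parts of sequence sharing with the parent and of depth were not tested.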

How the results depend on the processing

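Centring on ribosomal protein genes changed most: of all members, 201 rose and 23 fell in control enrichment, 19 and 28 in the difference of enrichment, and 33 and 69 in the IP change (42.4% and 4.85%, 4.01% and 5.91%, and 6.96% and 14.6% of members, against 66.1% and 4.28%, 1.89% and 52.2%, and 3.32% and 65.9% of all rows). This centring moves every row of a comparison by the same amount, so the values that turned are those smaller than that amount. The control enrichment median of ribosomal protein copies turned to 0.45, and the IP change median of the others to -0.11. Among called members, control enrichment turned to 0.18 in EEF1A1P5 and 0.27 in HMGA1P3. The difference of enrichment turned to -0.0012 in RPL23AP42, -0.055 in RPL13P12, -0.31 in HMGA1P3 and -0.11 in MEIS3P1. The IP change turned to -0.39 in RPL23AP42, -0.28 in RPL3P2, -0.45 in HMGA1P3 and -0.020 in MEIS3P1. Of 183 calls of named members, 86 were lost under this centring, 39 when some library was left out, and 0 to 12 under each of the other settings tried.

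Fewer members entered under 3 settings, so these counts cannot be set directly against those of all 474. There were 179 members with a mean log2 CPM of at least 1, 304 apart from same-strand genes and 162 with at least 100 reads. Shares of all rows are not given for the first and last of these settings. With rows at a mean log2 CPM of at least 1, 54 members fell in control enrichment, 91 rose in KO enrichment, 3 rose and 8 fell in the inputs, and 112 rose and 11 fell in the IP change. Apart from same-strand genes, 95 rose in KO enrichment (31.2%, against 28.4% of all rows) and 59 in the difference (19.4%, against 13.0%). In the inputs 2 rose and 10 fell (0.658% and 3.29%, against 5.56% and 5.67%), and 113 rose in the IP change (37.2%, against 23.0%). With at least 100 reads, a setting chosen after seeing the data, 39 rose and 51 fell in control enrichment, 84 rose in KO enrichment, 2 fell in the difference, 3 rose and 8 fell in the inputs, and 104 rose and 10 fell in the IP change. A pseudocount of 2 gave 7 that fell in the difference.

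Leaving out 1 library gave 45 to 66 higher and 72 to 109 lower in control enrichment, 150 to 176 and 23 to 37 in KO enrichment, 81 to 100 and 3 to 9 in the difference, 3 to 6 and 9 to 17 in the inputs, and 145 to 179 and 14 to 26 in the IP change. A replicate block by column number was added after seeing the data. The numbers are not tied to the labels. The deviations of same-numbered IPs and inputs from their group means correlated at 0.015 to 0.078. These values are low, but each IP correlated best with the input of its own number. Whether same-numbered libraries come from the same sample was not tested. Under the replicate block, 110 members rose and 5 fell in the difference of enrichment, and 106 and 7 with the block within genotype. Of the named calls, that of RPS27P9 in KO enrichment was lost under both blocks. Depth limits 312 members with under 100 reads.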
